A study of Mus musculus with 12 samples.

Results

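Genes of mitosis, the kinetochore and the centrosome were followed through the nascent transcriptome of mouse embryonic stem cells in which METTL3 was targeted for degradation. They were chosen by name, but with earlier results of these data known. The names were Mis12, Bod1l, Ndc80, Nuf2, Bub1, Bub1b, Bub3, Ttk, Incenp, Numa1 and Tpx2, and the kinesin (Kif), Cenp, Cep, Ska, Aurk, Plk, Anapc, Smc, Stag, Haus, Tubg, Spc2, Knl1, Kntc1, Ckap, Cntr, Pcnt and Esp families. Of 7263 tested intron clusters, 163 carried such a name, in 89 of 4273 named genes. Naming by family also brought in genes of other known roles, among them 8 clusters of transport kinesins, 1 of Aurkaip1, a mitochondrial ribosome protein, and 2 of Bod1l, which guards stalled replication forks.

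Chromosomes are captured by microtubules at the kinetochore, a protein assembly built on centromeric chromatin around the histone variant CENP-A. Microtubules are nucleated at the centrosome by gamma-tubulin rings, slid and bundled by mitotic kinesins, and the checkpoint kinases hold back the anaphase-promoting complex (APC/C) until every kinetochore is attached. Cohesin and condensin, built on SMC proteins, hold sister chromatids together and compact them. METTL3 is the catalytic subunit of the complex that writes N6-methyladenosine (m6A) on nascent RNA.

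The cells were female 129S x Cast embryonic stem cells, grown on fibroblast feeders, that carry a doxycycline-inducible Xist and METTL3 with a C-terminal FKBP12(F36V) tag, which lets the small molecule dTAG-13 bring the protein to the degradation machinery. In the 6 Ctrl samples no dTAG-13 was given, and in the 6 dTAG samples it was given for 3 h. All 12 samples were then labelled with 4-thiouridine (4sU), a uridine analogue built into new transcripts, for 30 min. Each condition held 3 samples of each of 2 clones, C3 and H5. Both clones were pooled in the tables, so a value for 1 sample or 1 clone is not given here.

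Introns with a common splice site form a cluster in LeafCutter, and each has a percent spliced in (PSI), here a fraction: its part of all split reads in the cluster. Since these fractions add up to 1, the value of an intron also moves with the reads of its neighbours. One PSI fitted over all samples of a condition was available per intron, with no error of its own. The spread between samples enters only through the likelihood ratio test of each cluster, read as a chi-square tail, which is an approximation at 6 samples per condition. A single intron has no test. Read counts and depth are unknown. Differences are dTAG minus Ctrl. The tables hold no expression level and degradation acts on the protein, so METTL3 loss could not be checked here. Of 10 stem cell marker genes 8 had a tested cluster, and of 10 feeder fibroblast markers only Fn1 and Sparc did. Sall4, a pluripotency factor, held the only marker cluster that passed, with an adjusted p of 3.13e-04. The part of feeder RNA in the results below was not tested.

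Splicing of 2 member genes changed with dTAG-13, in clusters of Bod1l and of Mis12, a subunit of the outer kinetochore complex that bears its name. They were the 2 of 163 member clusters with an adjusted p under 0.05, or 1.23%, against 51 of 7263, or 0.702%, of all tested clusters. Both genes were listed singly by name with earlier results of these data known, and no cluster matched by family passed. The 1.23% is therefore no evidence about the module. At the wider limit of adjusted p under 0.2 the 2 clusters were joined by 1 cluster of Ckap2, a spindle microtubule protein. That made 3 of 163 member clusters, against 115 of 7263, or 1.58%, of all tested clusters. Below the correction, 10 member clusters had an unadjusted p of at most 0.05, or 6.13% of members against 6.84% of all tested clusters, which is near the background. The largest absolute difference in PSI of a member cluster had a median of 0.0238, against 0.0214 over all tested clusters. It was under 0.05 in 130 clusters, or 79.8%, against 80.2% over all.

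**Figure D1:**
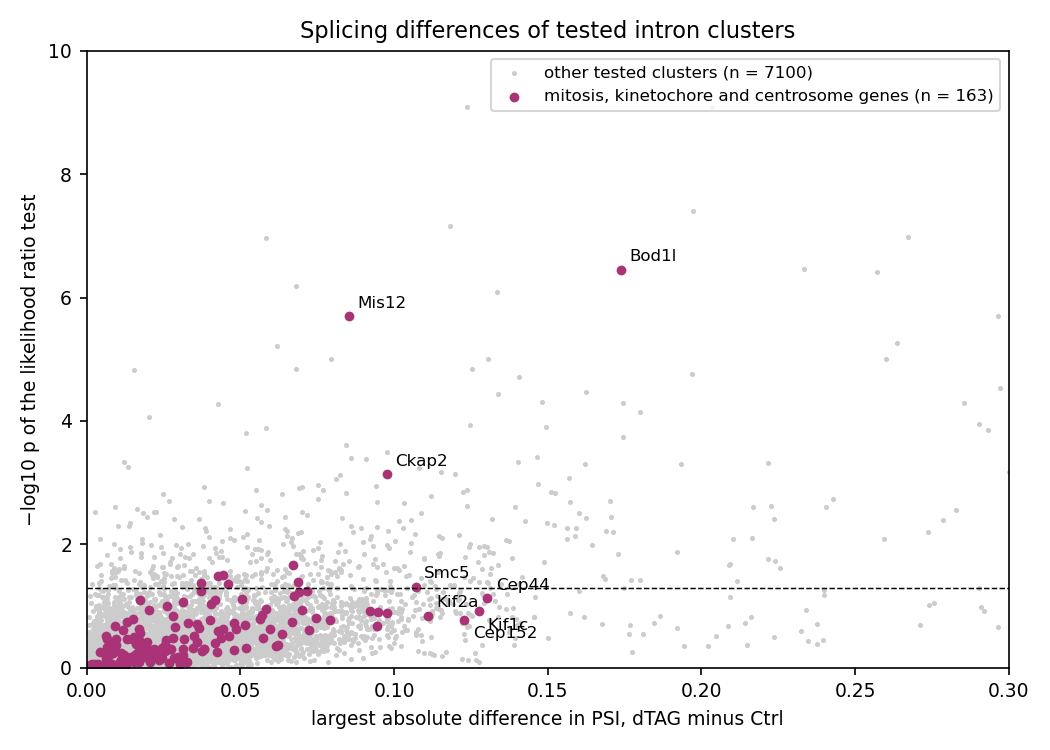
Largest absolute difference in PSI of each cluster (horizontal axis) against −log10 of the unadjusted p of its likelihood ratio test (vertical axis), for 163 member clusters (purple) and the 7100 others (grey), with the dashed line at an unadjusted p of 0.05. Bod1l, Mis12 and Ckap2 stand above the other members, and 30 of the other clusters lie outside the axes.

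The splice sites of the 3 strongest clusters are shown because each difference lay mainly between introns that start at different 5′ splice sites. Each line gives 30 bases from the GRCm38 reference, 5′ to 3′ on the sense strand, with the GT or AG of the intron in capitals. The cells were a 129S x Cast hybrid, and their own alleles may differ from the reference.
Bod1l, upstream 5′ site, chr5:41816980-41817009, minus strand: acaaagcaaaGTaagtgtgaattacccatg
Bod1l, annotated 5′ site, chr5:41816188-41816217, minus strand: tgtggtgtagGTgagagtccatttagaatt
Bod1l, tandem 3′ sites, chr5:41814193-41814222, minus strand: ttatgttaattctttgAGttttattAGgca
Bod1l, 3′ site inside the exon, chr5:41816400-41816429, minus strand: tgccttcttcccacacAGgagtcctttcag
Mis12, first 5′ site, chr11:71019714-71019743, plus strand: gatcgcttcgGTaggggctgtgtgctctcc
Mis12, second 5′ site, chr11:71020180-71020209, plus strand: gacgtgttcaGTaagttataaagaagcttt
Mis12, unannotated 5′ site, chr11:71020536-71020565, plus strand: aagtttggatGTaggtatttggttatgtaa
Ckap2, annotated 5′ site, chr8:22185664-22185693, minus strand: gccttccgagGTgagcgatggcacggggcc
Ckap2, unannotated 5′ site, chr8:22185370-22185399, minus strand: gaaaacttatGTaagttggtcagaatttgg

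Bod1l gave the strongest signal, with chi-square p = 3.54e-07 and an adjusted p of 1.98e-04 over the 5 introns of its cluster. The cluster joins a choice between 5′ sites 792 nt apart with one between 3′ sites 9 nt apart. The annotated 5′ site ends exon 10 of Bod1l-201, a coding exon of 5953 nt, and the upstream site lies inside that exon. The introns that start at the annotated site held a summed PSI of 0.632 in Ctrl and 0.382 in dTAG. Those that start at the upstream site held 0.368 in Ctrl and 0.618 in dTAG. The larger summed PSI thus lay at the annotated site in Ctrl and at the upstream site in dTAG. The upstream sum includes a short intron, chr5:41816412-41816999, that ends before the annotated 5′ site. A transcript could lose it and still use the annotated site, so the sums are not shares of an exclusive choice.

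The annotated intron 10 of Bod1l-201, chr5:41814196-41816207, had 0.424 in Ctrl and 0.252 in dTAG. Its partner with the upstream of the tandem 3′ sites, chr5:41814205-41816207, had 0.209 in Ctrl and 0.130 in dTAG. Both had the lower share in dTAG. From the upstream 5′ site, the intron chr5:41814205-41816999 had 0.165 in Ctrl and 0.339 in dTAG, the largest difference of any member intron, at 0.174. The intron chr5:41814196-41816999 had 0.0746 in Ctrl and 0.0876 in dTAG. A short intron within exon 10, chr5:41816412-41816999 of 588 nt, had 0.128 in Ctrl and 0.191 in dTAG. Of the 5 introns only the first is annotated in GENCODE vM21.

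The tandem 3′ sites of Bod1l were used unequally by the 2 donors. With the annotated 5′ site, the downstream, annotated 3′ site had 0.670 of the summed PSI in Ctrl and 0.661 in dTAG. With the upstream 5′ site it had 0.311 in Ctrl and 0.205 in dTAG. In a score that sums log2 odds of each base over annotated sites of the tested clusters, the downstream 3′ site reached 8.54 bits and the upstream one 2.07 bits. The upstream 5′ site scored 9.83 bits and the annotated one 8.79 bits. The other tested cluster of Bod1l, an exon of 141 nt, had a skipping PSI of 0.461 in Ctrl and 0.518 in dTAG with chi-square p = 0.333.

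Mis12 changed with chi-square p = 2.01e-06 and an adjusted p of 8.10e-04. All 4 introns of its cluster lie in the 5′ UTR. The unannotated intron chr11:71020546-71024549 had a PSI of 0.0871 in Ctrl and 0.00181 in dTAG. Its 5′ site lies 356 nt downstream of the annotated one that ends exon 2 of Mis12-206, inside the following intron. This junction was nearly lost in dTAG, and each of the other 3 introns had a higher share there.

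The share of the annotated Mis12 intron chr11:71020190-71024549 was 0.535 in Ctrl and 0.581 in dTAG. For chr11:71019724-71024549, which starts at the first exon, it was 0.342 in Ctrl and 0.367 in dTAG. For the short intron chr11:71019724-71020005 it was 0.0357 in Ctrl and 0.050 in dTAG. The 3′ site shared by 3 of the introns had a summed PSI of 0.964 in Ctrl and 0.950 in dTAG, so the difference lay between 5′ sites. Their scores were 4.87, 5.82 and 5.99 bits from the first to the unannotated site.

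Ckap2 had chi-square p = 7.19e-04 and an adjusted p of 0.0780, outside the limit of 0.05. Its cluster pairs intron 1 of Ckap2-201 with an unannotated 5′ site 294 nt further downstream, inside that intron. The annotated intron chr8:22179596-22185683 had a PSI of 0.783 in Ctrl and 0.881 in dTAG. The intron from the unannotated site, chr8:22179596-22185389, had 0.217 in Ctrl and 0.119 in dTAG. As in Mis12, the unannotated downstream site had the lower share in dTAG, and in Bod1l the upstream one had the higher. The sites scored 9.23 bits upstream and 7.88 bits downstream.

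**Figure D2:**
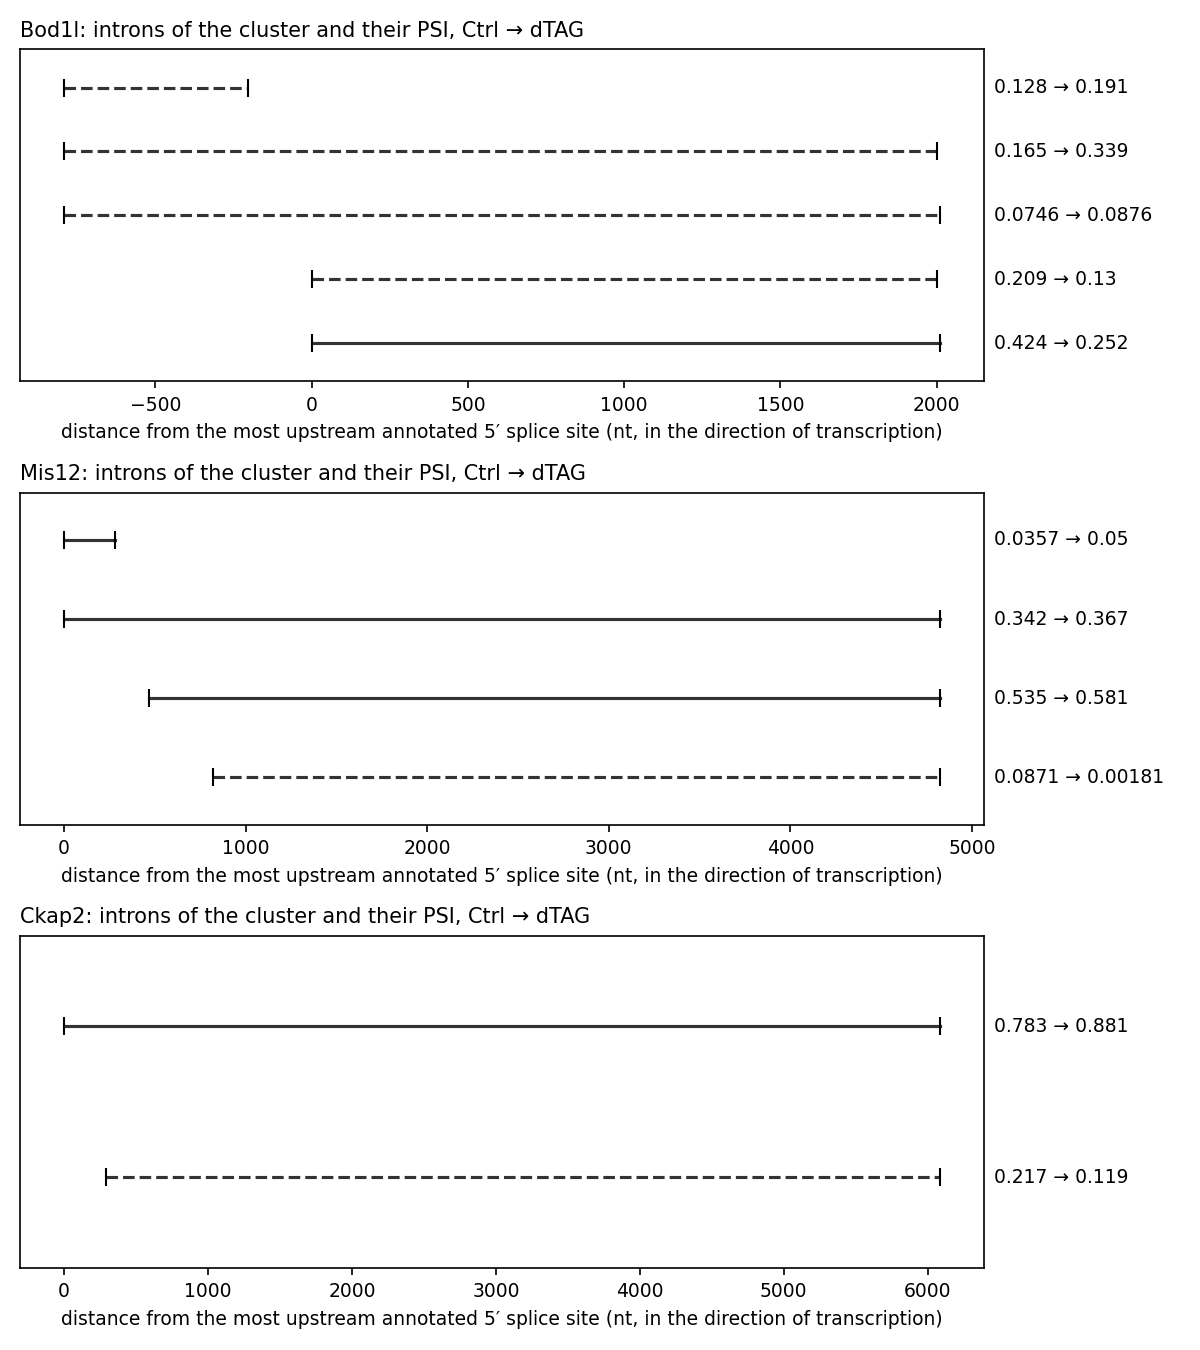
Introns of the Bod1l, Mis12 and Ckap2 clusters as lines from 5′ to 3′ site, with distance in nt from the most upstream annotated 5′ site on the horizontal axis, solid where annotated in GENCODE vM21 and dashed where not. The PSI in Ctrl and dTAG stands to the right of each, and in Bod1l the 3 introns from the site 792 nt upstream all have the higher share in dTAG.

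The letters GGACT, the commonest form of the sequence in which m6A is written, were searched on the sense strand within 200 nt of each 5′ splice site. They were found at 94 of 297 member 5′ sites, or 31.6%, against 32.0% of all 13992 sites. The annotated Bod1l site held 1 copy and the upstream site 0. In Ckap2 the unannotated site held 1 and the annotated site 0, and the 3 Mis12 sites held 0. The stretches between neighbouring 5′ sites held 3 copies in Bod1l (792 nt), 1 in Ckap2 (294 nt) and 0 in Mis12. A match describes the sequence and is no measurement of m6A.

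The other 7 clusters with p of at most 0.05 had adjusted p from 0.538 to 0.717 and belong to 6 genes. In 3 of them the 5′ sites competed, each with its downstream site at a higher share in dTAG. Kif18a, a kinesin that dampens chromosome movements at the metaphase plate, had its annotated intron 12, chr2:109310669-109317874, at 0.967 in Ctrl and 0.925 in dTAG. The unannotated intron chr2:109312452-109317874 had 0.0325 in Ctrl and 0.0753 in dTAG (chi-square p = 0.0330). Its 5′ site lies 1783 nt into intron 12.

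Cep57, a pericentriolar protein that stabilises microtubules at the centrosome, had intron 1 of Cep57-201, chr9:13821684-13826855, at 0.876 in Ctrl and 0.807 in dTAG. The intron from a site 314 nt downstream, chr9:13821684-13826541, had 0.124 in Ctrl and 0.193 in dTAG (chi-square p = 0.0400). The only annotated class of transcript with that intron, which includes Cep57-207, is targets of nonsense-mediated decay. This pathway removes transcripts with an early stop codon. Tpx2, which activates Aurora A and nucleates spindle microtubules, had 5′ sites 188 nt apart in its 5′ UTR. The upstream intron chr2:152848110-152854920 had 0.847 in Ctrl and 0.810 in dTAG, and the downstream one chr2:152848298-152854920 had 0.153 and 0.190 (chi-square p = 0.0425). Their 5′ sites, the only other pairs of 5′ sites at this level, read as follows.
Kif18a, annotated, chr2:109310659-109310688, plus strand: aaactgaggcGTaagtacatcgagttaaac
Kif18a, unannotated, chr2:109312442-109312471, plus strand: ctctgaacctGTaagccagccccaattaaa
Cep57, upstream, chr9:13826836-13826865, minus strand: tcagttttcgGTaaggggcggcaatcgcgt
Cep57, downstream, chr9:13826522-13826551, minus strand: tcactaacagGTaggtgtgcaggtttgtag
Tpx2, upstream, chr2:152848100-152848129, plus strand: tagcgtgaagGTgaggggaggcagcggtgc
Tpx2, downstream, chr2:152848288-152848317, plus strand: ccactagacgGTaaggactgttggtgtaag

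Smc5, which forms the SMC5/6 complex of DNA repair with Smc6, held 2 of the clusters. Its coding exon 19 in Smc5-201, chr19:23215155-23215199, is 45 nt long, a multiple of 3. The intron that skips it, chr19:23214741-23218404, had a PSI of 0.494 in Ctrl and 0.601 in dTAG (chi-square p = 0.0481). Both inclusion introns had the lower share in dTAG, with 0.290 and 0.218 for chr19:23215200-23218404 and 0.216 and 0.182 for chr19:23214741-23215154. In the preceding intron 17, the annotated intron chr19:23218531-23228173 had 0.922 in Ctrl and 0.966 in dTAG. An unannotated 3′ site 4103 nt upstream of its end had 0.0783 and 0.0339 (chi-square p = 0.0315).

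Cenpf, a large outer kinetochore protein of G2 and mitosis, had a cluster around exon 3 of Cenpf-204, of 197 nt, with chi-square p = 0.0213. The skipping intron had a small share, 0.0210 in Ctrl and 0.0241 in dTAG. The difference lay between the 2 inclusion introns, with 0.533 and 0.466 for chr1:189682952-189683767 downstream of the exon and 0.446 and 0.510 for chr1:189683965-189684944 upstream of it. Kif23, the kinesin of the central spindle and of cytokinesis, had a 5-intron cluster with chi-square p = 0.0432. Its intron chr9:61929767-61931800 had 0.494 in Ctrl and 0.540 in dTAG. The introns on either side of a coding exon of 42 nt, annotated in Kif23-204, had 0.134 and 0.108 for chr9:61932188-61933228 and 0.111 and 0.0892 for chr9:61933271-61935379.

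Larger differences did not always come with a small p. The 6 other clusters with the largest differences had p from 0.0741 to 0.165. Cep44, a centriole protein, had 3 5′ sites near its start that meet the same 3′ site. Its intron chr8:56547525-56550544 had 0.348 in Ctrl and 0.478 in dTAG, and the 2 others had 0.333 and 0.25, and 0.319 and 0.272 (chi-square p = 0.0741). Kif1c, a Golgi and endosome motor, had a 5′ UTR exon of 180 nt whose upstream intron chr11:70700710-70702371 had 0.394 in Ctrl and 0.266 in dTAG (chi-square p = 0.119). The intron downstream of that exon, chr11:70702552-70702771, went the other way, with 0.428 and 0.496, and the skipping intron had 0.178 and 0.237.

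Cep152, a scaffold of centriole duplication that recruits Plk4, chose among 3′ sites within 38 nt at the start of exon 7. Its intron chr2:125614394-125618372 had 0.534 in Ctrl and 0.657 in dTAG, and chr2:125614429-125618372 had 0.366 and 0.243 (chi-square p = 0.165). Both are unannotated and end inside coding exon 7 of Cep152-201. The annotated intron 6, chr2:125614432-125618372, had 0.10 in each condition. Kif2a, a microtubule depolymerase, had a coding stretch of 57 nt between its 5′ sites, where the long intron chr13:106987370-106988009 had 0.530 in Ctrl and 0.641 in dTAG (chi-square p = 0.143). Kif20b, a kinesin of late cytokinesis, had a 120-nt coding stretch between 3′ sites, and its short intron chr19:34940232-34941212 had 0.338 in Ctrl and 0.436 in dTAG (chi-square p = 0.128). Cep164, of the distal appendages of the mother centriole, had 8 introns in its cluster, of which chr9:45779837-45781951 had 0.342 and 0.247 (chi-square p = 0.125).

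**Figure D3:**
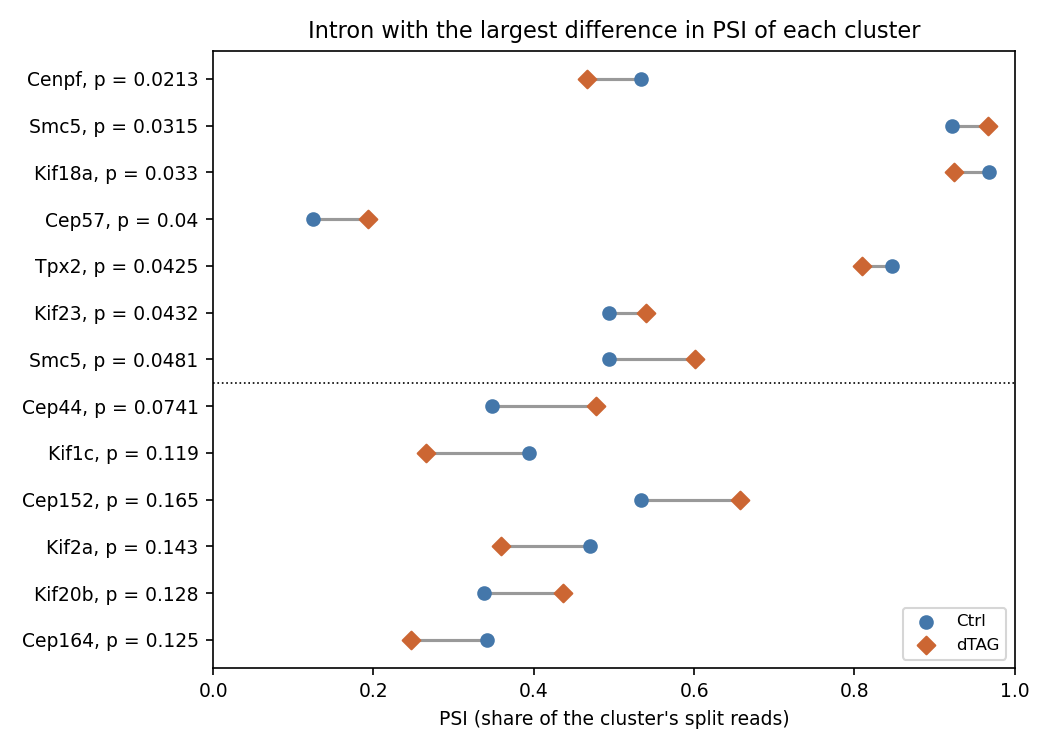
PSI in Ctrl (circle) and dTAG (diamond) of the intron with the largest difference in each cluster, with the unadjusted p of the cluster beside the gene. Above the dotted line are the 7 other clusters with p of at most 0.05, and below it the 6 with the largest differences among the rest, where Cep44 reaches 0.130.

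By role, the 55 clusters of centrosome and microtubule nucleation genes were the largest group, in 26 genes. Of these 1 had p of at most 0.05, and the median of the largest difference was 0.0238. Counts at this level, here and in the roles below, stand beside 6.84% of all tested clusters. The roles are small and were not compared by a test. Cep295, which converts centrioles to centrosomes, had 6 tested clusters with p from 0.110 to 0.876. Cep57 had 5, of which only the one above was under 0.05. Pcnt, pericentrin, a scaffold of the pericentriolar material, had 5 with p from 0.142 to 0.660. Its strongest holds an unannotated 5′ site inside intron 33 of Pcnt-201 whose intron, chr10:76370080-76374619, had 0.170 in Ctrl and 0.227 in dTAG.

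The 27 clusters of 20 centromere and kinetochore genes had a median of 0.0222, and 2 of them had p of at most 0.05, in Mis12 and Cenpf. Cenpt, which links centromeric DNA to the outer kinetochore, had an intron annotated only within the class of decay targets, chr8:105849550-105849625, at 0.0441 in Ctrl and 0.0858 in dTAG (chi-square p = 0.0787). Cenpa, the centromeric histone variant, had in the cluster of smaller p among its 2 an intron that skips a 137-nt exon at 0.398 in Ctrl and 0.445 in dTAG (chi-square p = 0.522).

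Among mitotic kinesins, 22 clusters in 8 genes had a median of 0.0272 and 2 had p of at most 0.05. Kif20b had more tested clusters than any other member, 8, with p from 0.128 to 0.966. Kif15, a plus-end-directed spindle motor, had 4, with p from 0.101 to 0.968. In its strongest, intron 30 of Kif15-201, chr9:123011638-123013939, had 0.936 in Ctrl and 0.962 in dTAG.

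The SMC complexes and cohesin held 20 clusters in 8 genes with a median of 0.0205. Apart from the 2 of Smc5 above, none had p of at most 0.05. Smc4, the condensin ATPase, had 5 clusters with p from 0.188 to 0.608. Stag1, a cohesin subunit, had 5 with p from 0.0847 to 0.814. In the strongest of these, the intron chr9:100663299-100705152 had 0.0344 in Ctrl and 0.0658 in dTAG, from a 5′ site 19502 nt downstream of the other.

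The spindle checkpoint, the APC/C and separase had 17 clusters in 12 genes and a median of 0.0150. Of these clusters 0 had p of at most 0.05, against 6.84% of all tested clusters. The smallest p was 0.0575, in Bub1b, the checkpoint protein BubR1. There an unannotated intron, chr2:118606689-118607473, had 0.0974 in Ctrl and 0.0603 in dTAG. Anapc5, a scaffold subunit of the APC/C, had chi-square p = 0.185 in the cluster of smaller p among its 2, for 3 competing 3′ sites, the main one at 0.687 in Ctrl and 0.719 in dTAG. Bub3, which brings Bub1 and BubR1 to kinetochores, had 2 tested clusters. Their largest differences were 0.00908 (chi-square p = 0.208) and 0.0195 (chi-square p = 0.379).

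Spindle factors and mitotic kinases had 11 clusters in 7 genes and a median of 0.0179, with Ckap2 and Tpx2 at p of at most 0.05. Aurka, Aurora A kinase, had 2 clusters, and the one with the smaller p, of 4 introns at its 5′ exons, had a largest difference of 0.0131 (chi-square p = 0.335). The 8 transport kinesin clusters, in 6 genes, had a higher median of 0.0522 with p of 0.119 or more. Kif13a, an endosomal motor, had an inclusion intron of a 105-nt coding exon, chr13:46760768-46761272, at 0.473 in Ctrl and 0.381 in dTAG. The other inclusion intron, chr13:46752873-46760662, went the other way, with 0.388 and 0.450, and the skipping intron had 0.140 and 0.169. In Kif13b, a motor of vesicle transport, the intron that skips a 63-nt coding exon had 0.156 in Ctrl and 0.206 in dTAG (chi-square p = 0.445). The intron that skips a 123-nt coding exon of Kif16b, an endosomal motor, had 0.0899 in Ctrl and 0.103 in dTAG (chi-square p = 0.844). Aurkaip1 had a 5′ site in its 5′ UTR, 31 nt downstream of the main one, at 0.0745 in Ctrl and 0.142 in dTAG (chi-square p = 0.0680).

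**Figure D4:**
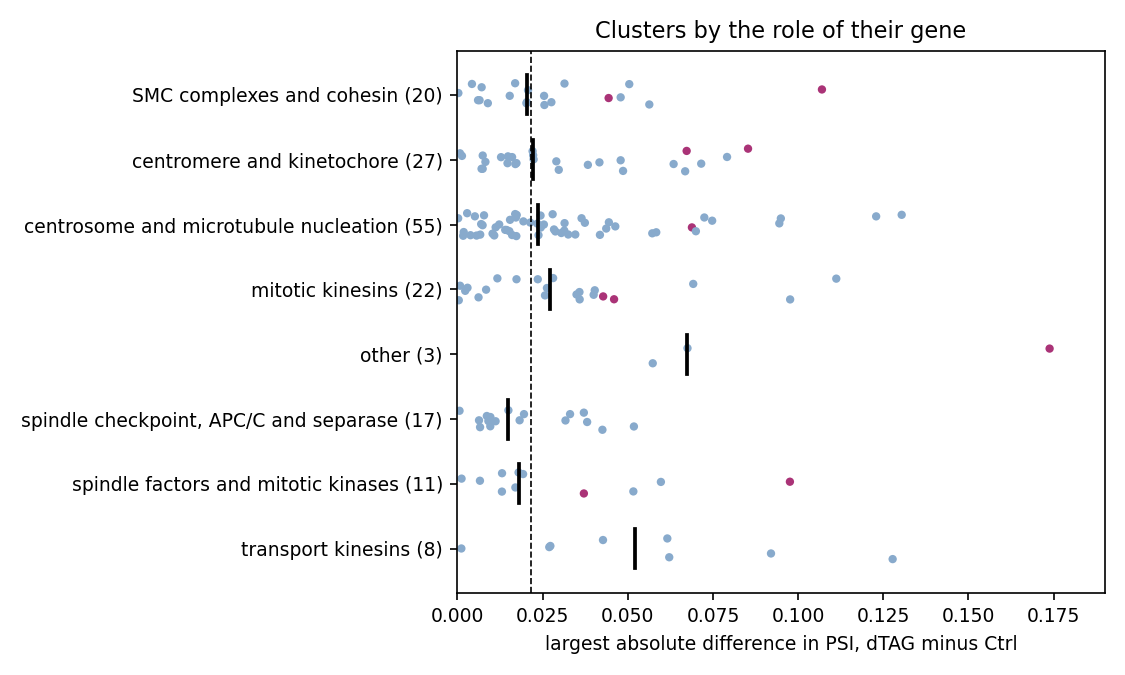
Largest absolute difference in PSI of each member cluster by the role of its gene, with the number of clusters in brackets, purple where the unadjusted p is at most 0.05, and a bar at the median of the role. The dashed line is the median of all tested clusters, 0.0214, and the medians of the roles with 10 or more clusters lie between 0.0150 and 0.0272.

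The module held 55 cassette exons, 46 pairs of 3′ sites, 39 pairs of 5′ sites and 23 clusters of other shapes. The same classes made up 33.7%, 28.2% and 23.9% of members and 33.3%, 25.2% and 22.2% of all tested clusters. Of member introns 76.3% were annotated, against 74.7% of all. Of the 39 pairs of 5′ sites, the upstream site had the higher share in dTAG in 14 and the lower in 25, with a median difference of -0.0043. Over all tested pairs it was higher in 48.3%. Of the 55 cassette exons, the skipping intron had the higher share in dTAG in 36, or 65.5%, against 57.1% over all, with a median difference of 0.0036. Most of these differences are small, and the 163 clusters were not tested as a set.

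Cassette exons of the module were mostly included. Inclusion is counted through both introns beside the exon, so the skipping PSI is lower than the rate of skipping. The skipping PSI had a median of 0.0491 in Ctrl and 0.0482 in dTAG, against 0.0793 and 0.0847 over all tested cassette exons. It was under 0.05 in both conditions in 26 of the 55, or 47.3%, against 35.4% over all. A length that is a multiple of 3, which keeps the reading frame, was found in 26 of 55, or 47.3%, against 44.1% over all. The shortest exon was 13 nt long, in Kif13a, and the longest 943 nt, in Haus7, a subunit of the augmin complex, which branches spindle microtubules.

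Pairs of 3′ sites exactly 3 nt apart were the commonest close pairs, with 11 of 46, or 23.9%, against 26.4% over all. They were singled out for this spacing after their values were seen. Such pairs add or drop 1 codon where they lie in coding sequence. The PSI of their downstream site in Ctrl ran from 0.0403, in Cep55, an abscission protein, to 0.946, in Bub1b. The larger share lay downstream in 6 and upstream in 5. The largest difference was 0.0700, in Cep192, a scaffold that brings Plk4 and Aurora A to centrosomes, with 0.448 in Ctrl and 0.517 in dTAG downstream. Cep295 had 0.551 and 0.493. The p of the 11 pairs ran from 0.110 to 0.924. The higher-scoring site had the larger share in Ctrl in 5 of the 11 pairs. Shown are the pairs with the lowest and the highest downstream share in Ctrl and, between them, Bub1 and Cep295. They let the order of the sites be read beside their sequence, and the other pairs are not shown.
Cep55, downstream 0.0403 in Ctrl and 0.0386 in dTAG, chr19:38073280-38073309, plus strand: ttgccgtttgttttgcAGaAGcagctacat
Bub1, downstream 0.547 in Ctrl and 0.586 in dTAG, chr2:127821848-127821877, minus strand: tggtgtctttctccccAGtAGggaacaaag
Cep295, downstream 0.551 in Ctrl and 0.493 in dTAG, chr9:15323702-15323731, minus strand: ttttctttctgttctcAGcAGagctcagaa
Bub1b, downstream 0.946 in Ctrl and 0.936 in dTAG, chr2:118623049-118623078, plus strand: tatttatgttaatataAGcAGcaagaagag

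**Figure D5:**
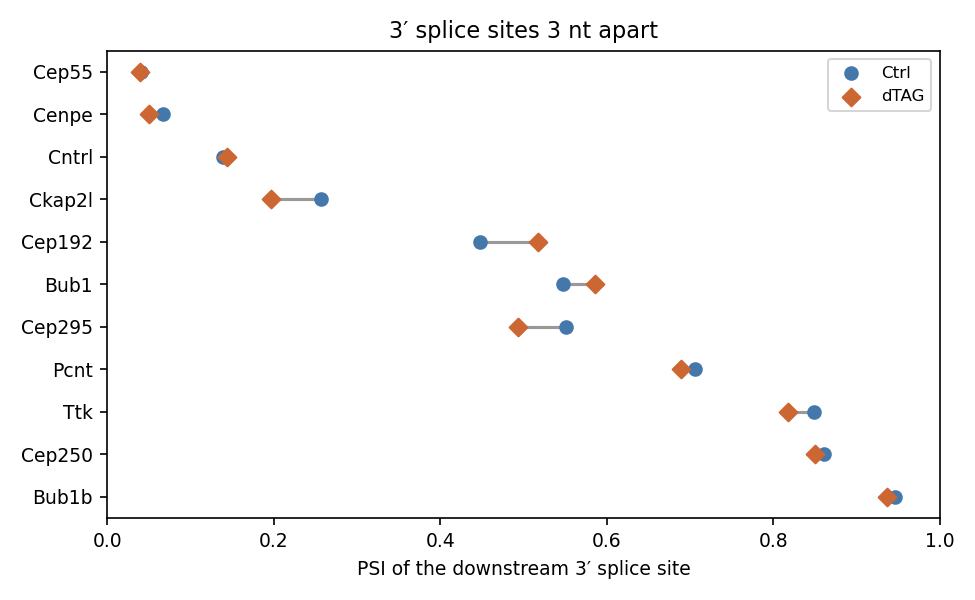
PSI of the downstream 3′ site in Ctrl (circle) and dTAG (diamond) for the 11 member pairs of 3′ sites 3 nt apart. The pairs span the range from 0.0403 to 0.946 in Ctrl, and Cep192 and Cep295 cross the middle of the axis between conditions.

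Other genes of the same pathways that the names do not cover gave 116 tested clusters in 57 of 112 genes listed. Of these 0 had an adjusted p under 0.05 by LeafCutter's test, and 5 had an unadjusted p of at most 0.05, or 4.31% against 6.84% of all tested clusters. Odf2, a component of centriole appendages, had an intron at 0.857 in Ctrl and 0.791 in dTAG (chi-square p = 0.00735). Cdc27, an APC/C subunit, had an intron at 0.0930 and 0.0370 (chi-square p = 0.00839), and Alms1, of the centrosome and cilium base, had one at 0.0843 and 0.166 (chi-square p = 0.0131). Ect2, which starts the cleavage furrow, had one at 0.436 and 0.482 (chi-square p = 0.0177). Pds5a, a cohesin regulator, had one at 0.455 and 0.492 (chi-square p = 0.0367). Their adjusted p were 0.323 or more. By list, 1 of 10 clusters of other APC/C subunits had p of at most 0.05, 0 of 14 of other kinetochore and checkpoint genes, 1 of 25 of other cohesin and condensin genes, 1 of 28 of spindle and cytokinesis genes, 2 of 22 of centriole genes and 0 of 17 of mitotic kinases and cyclins.

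Of 184 clusters with a member name, 21 were not tested, 15 for too few valid samples and 6 for at most 1 sample above the minimum coverage. No tested cluster was found for 11 genes, among them Cenpj, Cenpk, Cenpu, Kif3a and Tubgcp2. Of the 89 genes, 54 had a single tested cluster. Clusters of 1 gene share transcripts and are not independent of each other.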

How the data were processed

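The 12 samples of 4sU-seq were pooled by condition in the tables. The authors mapped reads to mm10 with STAR 2.5.2b, keeping unique alignments, and ran LeafCutter on the split reads. Per the file headers, the deposited PSI values are 1 fraction per intron and condition, fitted over both clones, and the deposited log likelihood ratio of each cluster is a score with its degrees of freedom. Columns of the authors' own p-values, adjusted p-values, effects and PSI differences were not used. From the score, p was recomputed as the chi-square tail of 2 times the log likelihood ratio and adjusted by Benjamini-Hochberg over 7263 clusters. The calculation was tested on simulated data, with ratios drawn from chi-square distributions. That checks the code and not whether the chi-square tail holds for these samples. No counts or per-sample values were used, so depth is unknown, and leaving out a sample or splitting clones could not be done.

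Deposited ends are the exon bases beside the intron, since 20422 of 20437 introns (99.9%) have splice motifs 1 base inside both ends. Printed coordinates are the first and last intron base, 1-based. Annotation was GENCODE vM21 on GRCm38, and gene names are those of the table. Splice sites were scored over 3 exon and 6 intron bases (5′) or 20 intron and 3 exon bases (3′) against base frequencies at annotated sites.

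Named were the clusters with p of at most 0.05, the 6 others with the largest difference, the 3 genes per role with most clusters and up to 4 genes per pathway list with p of at most 0.05. The members, lists and roles were chosen with earlier results of these data known. Alternatives changed the gene set, the adjustment, the threshold, an inflation correction and the introns counted. Python 3.11.15 was used with scipy 1.17.1, statsmodels 0.14.6 and pysam 0.24.0. Peak data of m6A were not used here.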

Additional observations from a re-analysis of the deposited data

How the results depend on the processing

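The count of 2 member clusters with adjusted p under 0.05 was also 2 without clusters of several gene names, with the likelihood ratio divided by its median inflation, without clusters of more than 10 introns, with a largest difference of at least 0.05, under Benjamini-Yekutieli and Bonferroni, and with 1 p per gene. It was 1, Mis12, when genes of other known roles, Bod1l among them, were left out of the module, and 3 at adjusted p under 0.2. No member cluster had several gene names and none had more than 8 introns, so these exclusions acted only through the adjustment. The largest differences of Bod1l and Mis12 were 0.174 and 0.0853, so the limit of 0.05 could not drop them. The median inflation was 0.859 at the 4 degrees of freedom of Bod1l and 0.953 at the 3 of Mis12. Both factors are under 1, so the inflation correction raised their ratios and was no strict check of these calls. The 10 clusters with p of at most 0.05 became 6 with a largest difference of at least 0.05 and 3 at p of at most 0.01, both by construction. They were 8 after the inflation correction and 9 without genes of other roles. The median largest difference was 0.0249 over annotated introns only, in the 110 clusters with an annotated pair, against 0.0238. Leaving out introns under 0.01 in both conditions removed none from the 10 clusters, so it says nothing of their stability. Over annotated introns 5 of them could be recomputed. No paired analysis was possible because the tables pool all samples of a condition and hold no value for a replicate. For the same reason no sample could be left out in turn, and the read depth behind a PSI is unknown.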
